A study of Mus musculus with 6 samples.

Results

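The genes described here encode integrin alpha 8 beta 1 (Itga8 and Itgb1), its ligands nephronectin (Npnt), fibronectin (Fn1), vitronectin (Vtn), tenascin C (Tnc) and osteopontin (Spp1), and the Fraser complex proteins Fras1, Frem1 and Frem2, which hold nephronectin in basement membranes. They were taken by gene symbol, and the array measures all 10 of them, of 20677 genes, with 24 of the 38011 probe sets that name 1 gene. RNA came from wild-type C57Bl6 embryonic livers (E12.5), and the labels name no other genetic change or agent in any group. Of the 6 groups, 1 is unsorted liver cells, 1 is cells sorted for the adhesion molecule ALCAM, and 4 are ALCAM+ cells further divided into podoplanin positive (PDPN+), podoplanin negative (PDPN-), ITGA8+ and ITGA8- cells. Each group is 1 array, so no value has a replicate error, no test across samples exists, and every difference is a difference between 2 arrays; how many embryos were pooled is not given in the sources used here.

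Integrins are surface receptors made of an alpha and a beta chain. The alpha 8 chain pairs with beta 1 and binds matrix proteins through the tripeptide arginine, glycine and aspartate (RGD). In the developing kidney, mesenchyme carries the receptor, the neighbouring epithelium lays down nephronectin, and the Fraser complex anchors it between the layers. In the liver, alpha 8 is known as a protein of stellate cells, the vitamin A storing mesenchymal cells that lie below the mesothelium in the embryo and later along the sinusoids.

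The receptor's contact in its ligands is short, so the coding bases around it are shown, from GENCODE M21 transcripts (GRCm38), with the codons of the tripeptide in capitals. The translated coding sequences of Npnt, Vtn, Spp1 and Frem1 each held it 1 time, as did Egfl6, whose product is the closest relative of nephronectin. Those of Fn1, Fras1 and Frem2 were not examined for it individually, so nothing is said of the tripeptide in them.

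Npnt: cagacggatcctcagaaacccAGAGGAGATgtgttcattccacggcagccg

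Egfl6: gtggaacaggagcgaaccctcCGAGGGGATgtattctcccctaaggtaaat

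Vtn: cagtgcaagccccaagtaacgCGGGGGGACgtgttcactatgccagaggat

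Spp1: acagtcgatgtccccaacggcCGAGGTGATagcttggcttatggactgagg

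Frem1: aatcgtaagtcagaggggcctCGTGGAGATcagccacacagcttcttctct

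In Npnt the site begins at residue 430 of 609, in exon 10, and the stretch shown runs into exon 11 (chr3:132891475-132904694, minus strand). In Egfl6 it begins at residue 360 of 550, in exon 8, and the stretch shown runs into exon 9 (chrX:166536267-166538450, minus strand). In Vtn it begins at residue 64 of 478, in exon 3, and the stretch shown starts in exon 2 (chr11:78499607-78499735, plus strand). In Spp1 it begins at residue 145 of 295, in exon 7 (chr5:104439460-104439510, plus strand), and in Frem1 at residue 205 of 2191, in exon 3 (chr4:83013821-83013871, minus strand). All 5 sites are coding, and the Npnt, Egfl6 and Vtn sites are followed directly by a valine codon. The longest coding sequence of mouse Tnc, 2110 residues, held no such tripeptide. Of 21760 genes with a complete coding sequence, 7.2% held it.

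Values are probe set intensities on a linear scale, and differences are on a log2(intensity + 16) scale, which understates the change of low genes. The 4 fraction arrays share 1 scale, with trimmed mean intensities of 996.02 to 996.78, while liver had 194.79 and ALCAM+ 329.05, so differences were taken within these sets. The ALCAM+ array stood above liver by a median of 0.90 log2 (1.87-fold) over genes, and differences from liver are given relative to that. A gene entered a count if at least 1 of its 2 arrays was over 109, the median intensity of the table, here termed the floor. A gene with several probe sets was represented by its brightest one, and the others are given as a check within the array. Blood cell markers differed between the fractions, with PDPN- lowest in each list and PDPN+ highest in neutrophil and macrophage markers. The 10 megakaryocyte markers summed to an intensity of 329 there and to 16533 to 38717 in the other 3 fractions, and the 10 macrophage markers to 630 against 2054 to 32741. The 8 neutrophil markers summed to 120 in PDPN-, 29096 in PDPN+ and 1777 to 2709 in the ITGA8 sort, the 9 erythroid markers to 10624 and 13650 in the podoplanin sort against 41570 and 50940 in the ITGA8 sort, and the 10 endothelial markers to 1278 in PDPN- against 5011 to 7534.

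The receptor's alpha chain was highest in ITGA8+ cells, the fraction sorted for it. Itga8 intensity was 4354 in ITGA8+ and 871 in ITGA8- cells, 737 in PDPN+ and 2215 in PDPN- cells, and 430 in ALCAM+ against 48 in liver. Within the fractions, ITGA8+ and PDPN- were the high arrays and PDPN+ and ITGA8- the low ones, with no overlap between these pairs. ITGA8+ was 1.96-fold above PDPN-, PDPN- was 2.52-fold above ITGA8-, and ITGA8- and PDPN+ differed by 1.18-fold. The ITGA8- cells were thus not free of the transcript, and they lay at the 71.3 percentile of all probe sets in their array, against 91.6 in ITGA8+ cells. The second Itga8 probe set lay below the floor everywhere and had the same high arrays, at 96 in ITGA8+ and 85 in PDPN-, against 20 in PDPN+ and 4 in ITGA8-. In these sorted samples fewer cells of a type and less RNA per cell cannot be told apart.

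The beta chain did not follow the alpha chain. Itgb1, shared by many integrins, had intensities of 1733 in ITGA8+ and 2380 in ITGA8- cells, 2542 in PDPN+ and 2274 in PDPN- cells, and 1683 in ALCAM+ against 1084 in liver. The 4 fractions lay within 1.46-fold of each other, and ITGA8+ cells, where Itga8 was highest, had the lowest Itgb1 value. Its 6 probe sets gave ITGA8+ minus ITGA8- differences of -0.80 to 0.32 log2 among the 5 above the floor, with 4 negative and 1 positive and none past 2-fold.

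**Figure D1:**
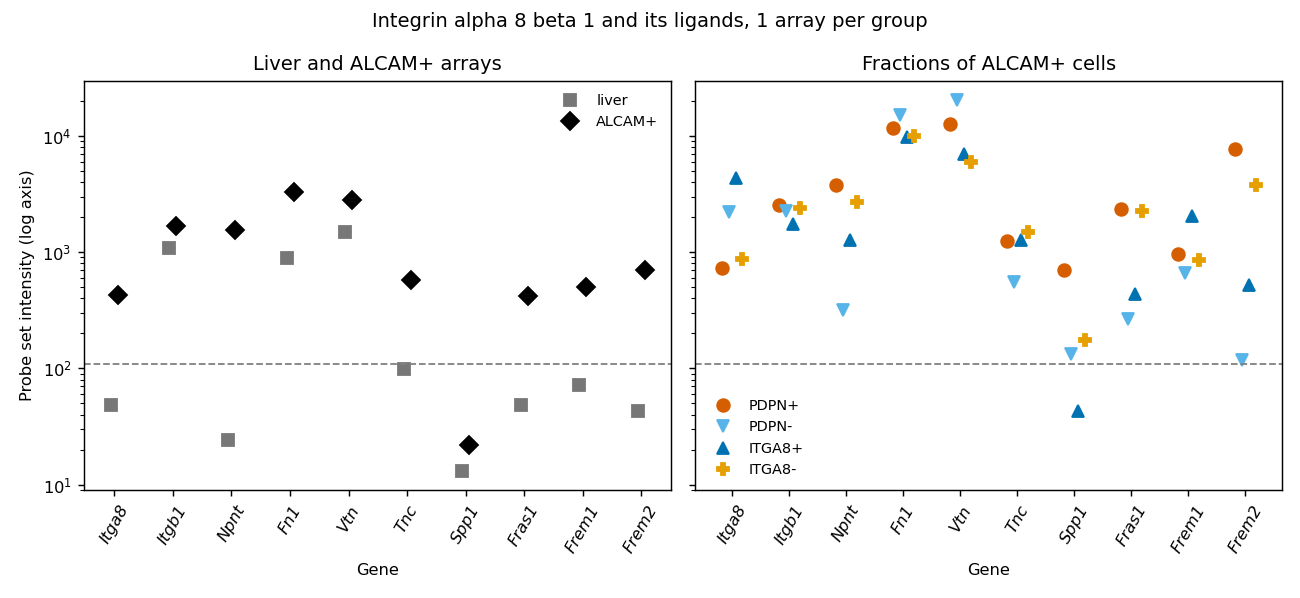
Intensity of the brightest probe set of each gene (y, log axis) in the 2 arrays of the lower scale (left) and in the 4 fractions (right), 1 point per array; the dashed line is the floor of 109. Itga8 is highest in ITGA8+ and PDPN- cells, while Npnt, Fras1 and Frem2 are highest in PDPN+ and ITGA8- cells, and Itgb1 and Fn1 vary little between fractions.

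Nephronectin, the ligand with the best known role at this receptor, was highest in the fractions with the least Itga8. Npnt intensity was 1282 in ITGA8+ and 2696 in ITGA8- cells, 3775 in PDPN+ and 320 in PDPN- cells, and 1537 in ALCAM+ against 24 in liver. PDPN+ and ITGA8- were the high arrays, 1.40-fold apart, ITGA8+ was 2.09-fold below ITGA8-, and PDPN- was 3.86-fold below ITGA8+. ITGA8+ cells therefore held an Npnt signal well above the floor. All 5 Npnt probe sets lay 2-fold or more above in PDPN+ over PDPN- (2.79 to 3.63 log2, mean 3.26 ± 0.36, SD over probe sets). All 5 lay 2-fold or more lower in ITGA8+ than in ITGA8- (-2.49 to -1.06, mean -1.83 ± 0.56). The brightest probe set had the smallest difference of these 5 in the ITGA8 split. The spread was wider in ALCAM+ minus liver, where liver was at 24 to 46 on every probe set, below the floor: 0.52 to 4.38 log2, with 4 of 5 past 2-fold.

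The Fraser complex genes did not move as a unit. Fras1, a membrane-anchored basement membrane protein, had intensities of 433 in ITGA8+ and 2270 in ITGA8- cells, 2331 in PDPN+ and 266 in PDPN- cells, and 418 in ALCAM+ against 48 in liver. Frem2, its partner at the membrane, had 519 and 3786, 7638 and 118, and 696 and 43 in these pairs. Both were high in PDPN+ and ITGA8- cells and low in the other 2 fractions, without overlap. Fras1 was 8.32-fold higher in PDPN+ than in PDPN- cells and 5.09-fold lower in ITGA8+ than in ITGA8- cells, and Frem2 57.1-fold higher and 7.11-fold lower. The second Fras1 probe set gave 2.70 and -1.32 log2, the same directions past 2-fold; Frem2 has 1 probe set, and its PDPN- value of 118 lay just above the floor.

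Frem1, a secreted member whose tripeptide is shown above, had another pattern. Its intensity, from 1 probe set, was 2061 in ITGA8+ and 860 in ITGA8- cells, 972 in PDPN+ and 663 in PDPN- cells, and 496 in ALCAM+ against 72 in liver. ITGA8+ stood 2.10-fold above PDPN+, and the other 3 fractions lay within 1.46-fold of each other. Frem1 was thus higher with Itga8 in the ITGA8 split (2.37-fold) and not 2-fold different in the podoplanin split (1.46-fold, toward PDPN+).

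Fn1 varied little between fractions, and Vtn differed mainly between the 2 sorts. Fn1, fibronectin, had intensities of 9747 in ITGA8+ and 9918 in ITGA8- cells, 11746 in PDPN+ and 15263 in PDPN- cells, and 3284 in ALCAM+ against 887 in liver. The fractions lay within 1.56-fold, and neighbours in the order of their levels differed by at most 1.30-fold. Vtn, vitronectin, which hepatocytes secrete, was at 6933 and 5934, 12570 and 20496, and 2820 and 1476 in the same pairs. It was higher in both fractions of the podoplanin sort than in both of the ITGA8 sort, with PDPN- 3.45-fold above ITGA8-. The 11 hepatoblast markers summed to 118458 in ITGA8-, 149542 in ITGA8+, 160041 in PDPN+ and 193463 in PDPN- cells; their part in the Vtn levels was not tested. The second Vtn probe set was also higher in the podoplanin sort, at 9897 in PDPN+ and 17768 in PDPN- cells, but it was at 4270 in ITGA8+ and 5150 in ITGA8- cells, so the probe sets gave 0.22 and -0.27 log2 in the ITGA8 split and no direction is given there.

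Tnc and Spp1 were the ligands with limits of their own. Tnc, a matrix protein of mesenchyme, had intensities of 1269 in ITGA8+ and 1489 in ITGA8- cells, 1240 in PDPN+ and 556 in PDPN- cells, and 576 in ALCAM+ against 98 in liver, so PDPN- was the low fraction, 2.20-fold below PDPN+. Its 2 probe sets went opposite ways in the ITGA8 split: the brighter gave -0.23 log2 and the other, at 814 in ITGA8+ and 189 in ITGA8-, gave 2.02. No direction is therefore given for Tnc in that split. In the podoplanin split the dimmer Tnc probe set lay below the floor, at 106 in PDPN+ and 62 in PDPN- cells. It gave 0.65 log2 there, the same direction as the brighter one but under 2-fold. Spp1, a secreted phosphoprotein of macrophages and biliary cells, was at 13 in liver and 22 in ALCAM+, below the floor in both, and at 43 in ITGA8+, 177 in ITGA8-, 699 in PDPN+ and 134 in PDPN- cells. PDPN+ was 3.70-fold above ITGA8-, its neighbour in that order. The macrophage markers, all 10 above the floor in PDPN+, summed to 32741 there and to 630, 3508 and 2054 in PDPN-, ITGA8+ and ITGA8- cells; their part in the Spp1 levels was not tested.

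ALCAM+ cells were compared with unsorted liver. Relative to the median shift, Npnt was 20.8-fold, Frem2 6.47-fold, Itga8 3.73-fold, Fras1 3.63-fold, Frem1 3.12-fold and Tnc 2.78-fold higher in ALCAM+ cells. These 6 had liver intensities of 24 to 98, below the floor, so they entered the comparison only through the array where they were high, and their sizes depend on the pseudocount. The floor is common to both scales, while the median probe set intensity was 42 in liver and 66 in ALCAM+ cells. In the liver array these genes lay from the 37.7 percentile (Npnt) to the 65.4 percentile (Tnc) of probe sets. A liver value below the floor thus does not mean absence. Their number is therefore a description beside the 15.5% of all genes tested that were 2-fold higher and the 11.3% that were lower. Of the 3 genes above the floor in liver, none passed 2-fold by its brightest probe set. Fn1 lay just under the mark at 1.96-fold, while Vtn (1.02-fold) and Itgb1 (1.21-fold lower) followed the shift. All 3 Itgb1 probe sets above the floor were lower, and 1 passed 2-fold, at 104 in ALCAM+ and 151 in liver (2.60-fold). The second Fras1 probe set, at 294 in ALCAM+ and 68 in liver, was 1.98-fold higher. Spp1, below the floor in both arrays and so left out of the count, was at -0.51 log2. A gene under the floor in 1 array enters a count only through the other, and this holds for the gene lists given further on as well. As deposited, without taking off the shift, Itga8 was 6.97-fold and Fn1 3.65-fold higher. The 13 mesothelial markers summed to 1094 in liver and 18588 in ALCAM+ cells and the 13 stellate markers to 1393 and 7735. Blood cell markers differed too. Erythroid markers summed to 36500 in liver and 15149 in ALCAM+ cells, with 8 of 8 above the floor 2-fold lower relative to the shift, and neutrophil markers to 7449 and 2921, with 6 of 7 lower. Megakaryocyte markers summed to 7559 and 27962, with 7 of 10 higher. The part of these cell types in the differences was not tested.

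In the podoplanin split Itga8 went opposite to Npnt, Fras1, Frem2, Spp1 and Tnc. Within 2-fold, Itgb1 (1.12-fold) and Frem1 (1.46-fold) were higher in PDPN+ cells, and Fn1 (1.30-fold) and Vtn (1.63-fold) were lower. Of the 10 genes, 5 were 2-fold or more higher in PDPN+ cells, against 19.9% of all genes tested, and 1 lower, against 7.89%. The 5 were Frem2, Npnt, Fras1, Spp1 (4.77-fold) and Tnc, and the 1 was Itga8, 2.96-fold lower. Frem2 exceeded 99.8% and Npnt 97.5% of all genes in this difference, and 2.2% of genes lay below Itga8. The median of the 10 was 0.84 log2 and that of all genes 0.04. In the ITGA8 split, 2 genes were higher in ITGA8+ cells, Itga8 (4.93-fold, the sorted gene) and Frem1, against 5.36% of all genes. There 4 were lower, against 5.98%: Frem2, Fras1, Spp1 (3.27-fold, at 177 in ITGA8- and, below the floor, 43 in ITGA8+) and Npnt. The median of the 10 was -0.34 log2 and that of all genes 0.00.

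**Figure D2:**
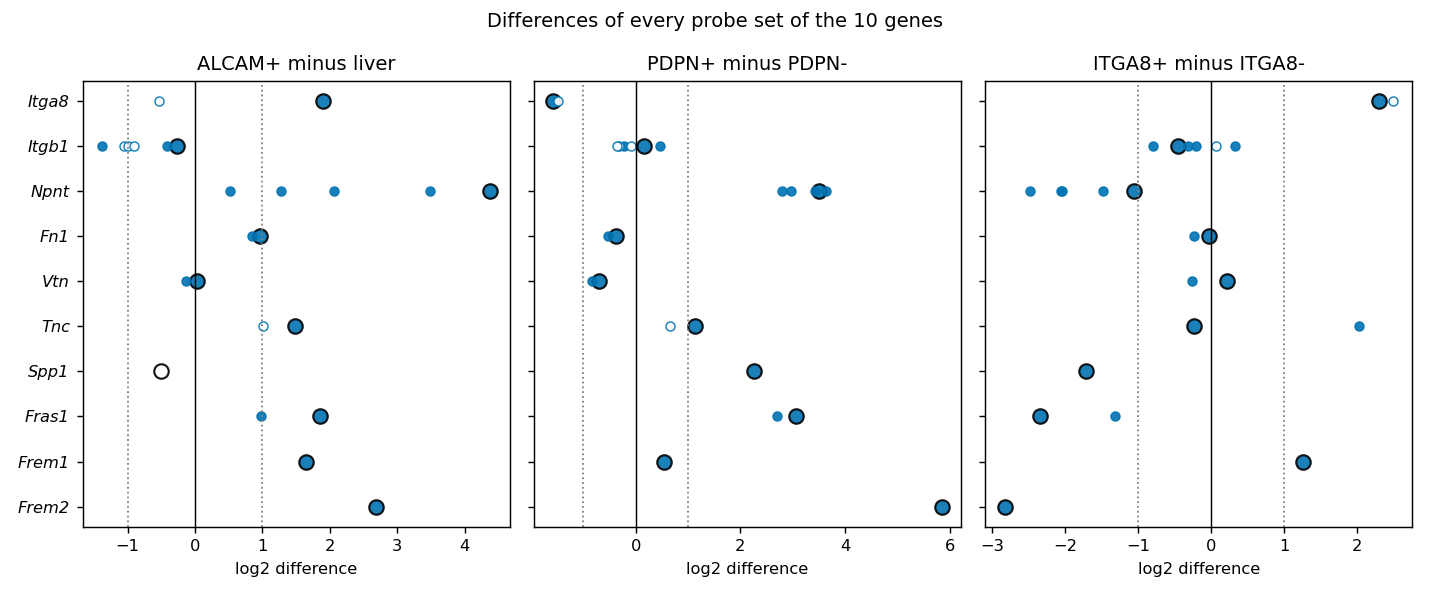
Difference on the log2 scale (x) of every probe set of the 10 genes in the 3 comparisons, relative to the median shift in the left panel; the large outlined point is the brightest probe set, open points are below the floor, dotted lines mark 2-fold. The 5 Npnt probe sets lie on 1 side in each panel, and the 2 Tnc probe sets lie on opposite sides of 0 in the ITGA8 split.

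The 2 splits share no array, so the 4 fractions can be read together. Npnt, Fras1 and Frem2 were 2-fold or more higher in both PDPN+ and ITGA8- than in both PDPN- and ITGA8+ cells, by at least 2.09-, 5.09- and 7.11-fold between the nearest arrays. Over all genes above the floor in a fraction, 1.63% had this pattern. The reverse pattern held for Itga8, by 2.52-fold, and for 0.228% of all genes. ITGA8+ and ITGA8- cells were sorted by the Itga8 product, so the place of Itga8 in this pattern was in part set by the sort. The PDPN- array, lowest in blood cell markers, was then left out, while PDPN+, highest in neutrophil and macrophage markers, was kept. Npnt, Fras1, Frem2 and Spp1 were then 2-fold higher in both PDPN+ and ITGA8- than in ITGA8+ cells, against 4.2% of all genes. In the other direction Itga8, the sorted gene, and Frem1 were 2-fold higher in ITGA8+ than in both of these, against 3.73%. All 5 Npnt and both Fras1 probe sets had the first pattern with the 4 arrays.

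Most mesothelial markers moved with the first pattern. The 13 markers summed to 71293 in PDPN+ and 53315 in ITGA8- cells, against 12428 in PDPN- and 26956 in ITGA8+ cells, and 13, 13, 6 and 12 of them were above the floor. In the podoplanin split 12 of the 13 were 2-fold higher in PDPN+ cells and 0 lower, beside 19.9% and 7.89% of all genes. In the ITGA8 split 10 were lower in ITGA8+ cells and 0 higher, beside 5.98% and 5.36%. Upk3b, a uroplakin of mesothelium, was at 14424, 11076, 139 and 4578 in these arrays. Krt8, a keratin that hepatoblasts also make, went the other way in both splits, at 6385, 3817, 10767 and 5813, and made up most of the PDPN- sum. Wt1 and Pdpn, the latter used for the podoplanin sort, passed 2-fold in that split but differed by 1.11-fold and 1.32-fold between ITGA8+ and ITGA8- cells. The 13 stellate markers summed to 52317 in ITGA8+ cells and to 30451 to 33651 in the other 3 fractions, and 13 were above the floor in ITGA8+ and PDPN- cells and 12 in PDPN+ and ITGA8- cells. In ITGA8+ cells 6 were 2-fold higher and 0 lower, beside 5.36% and 5.98% of all genes. The list had no single direction in the podoplanin split. There 3 were higher in PDPN+ cells, a share near the 19.9% of all genes, and 2 were lower, beside 7.89%. The 3 were Foxf1 (7981 in PDPN+ against 2493 in PDPN-), Ecm1 (2416 against 751) and Hand2 (3277 against 1129), and the 2 were Lrat and Ngfr (154 against 436). Lrat, the retinol esterifying enzyme of stellate cells, was low, at 193 in ITGA8+, 231 in PDPN-, 9 in PDPN+ and 36 in ITGA8- cells. No marker of either list was at 0 in any fraction. The part of these cell types in the gene differences was not tested.

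**Figure D3:**
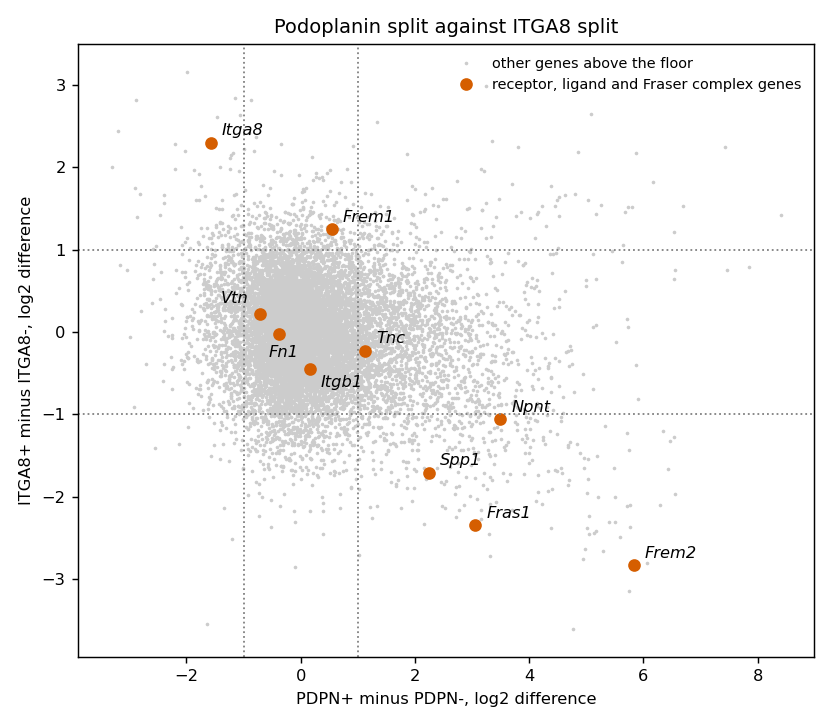
PDPN+ minus PDPN- (x) against ITGA8+ minus ITGA8- (y) on the log2 scale; grey points are genes above the floor in both splits, orange points the 10 genes, dotted lines 2-fold. Npnt, Fras1, Frem2 and Spp1 lie at the lower right, Itga8 lies at the upper left, and Vtn, Fn1 and Itgb1 lie near the centre.

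Since Npnt and Frem2 were high in the same 2 arrays and Itga8 in the other 2, the 250 bases before the start of each are printed, from RefSeq (GRCm38.p6), which had entries for 8 of the 10 genes. Capitals mark a match to a motif searched on both strands.

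Npnt: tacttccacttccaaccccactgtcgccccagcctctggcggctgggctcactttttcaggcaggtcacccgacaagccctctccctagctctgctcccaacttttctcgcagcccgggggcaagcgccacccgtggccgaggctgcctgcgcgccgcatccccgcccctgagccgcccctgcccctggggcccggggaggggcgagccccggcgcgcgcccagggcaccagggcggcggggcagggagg

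Frem2: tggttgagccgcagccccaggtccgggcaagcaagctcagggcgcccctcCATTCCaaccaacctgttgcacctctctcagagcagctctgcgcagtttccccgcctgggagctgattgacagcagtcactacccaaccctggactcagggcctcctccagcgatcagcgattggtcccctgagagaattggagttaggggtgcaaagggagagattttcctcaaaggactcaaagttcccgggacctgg

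Itga8: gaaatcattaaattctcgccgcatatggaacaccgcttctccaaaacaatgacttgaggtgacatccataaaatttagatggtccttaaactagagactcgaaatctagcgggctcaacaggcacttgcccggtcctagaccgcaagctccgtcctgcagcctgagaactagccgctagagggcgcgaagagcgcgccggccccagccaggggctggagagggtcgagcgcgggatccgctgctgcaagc

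They lie at chr3:132950292-132950541, chr3:53657356-53657605 and chr2:12301945-12302194, all on the minus strand, and for Npnt the more upstream of 2 starts is shown. G and C made up 74.0% of the Npnt, 59.6% of the Frem2 and 56.4% of the Itga8 window. The motifs searched were GGAATG for TEAD factors, GCGTGGG for both EGR and WT1 proteins, AGATAA for the GATA family, TGAGTCA for AP-1 dimers and the CArG box of SRF, none of which overlapped another here. The only match in these 3 windows was a TEAD motif on the opposite strand of Frem2, 200 to 195 bases before the start. Over all 32851 windows the motifs matched in 12.6%, 4.3%, 10%, 4.5% and 1.5%, in the order given. A match describes these letters and says nothing of a factor.

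Basement membrane partners of nephronectin and the Fraser complex had 12 of 13 listed genes on the array, and 11 above the floor in each comparison. In ALCAM+ minus liver 10 were 2-fold higher and 0 lower (median 1.86 log2), beside 15.5% and 11.3% of all genes, led by Egfl6 (7.89-fold), the laminin chain genes Lama5 (5.92-fold) and Lamb1 (4.90-fold), and the nidogen gene Nid2 (4.71-fold). In the podoplanin split 4 of 11 were higher and 0 lower (median 0.88), beside 19.9% and 7.89% of all genes. In the ITGA8 split 0 were higher and 3 lower (median -0.48), beside 5.36% and 5.98%. Egfl6 was at 333 in ITGA8+ and 975 in ITGA8- cells, 2167 in PDPN+ and 44 in PDPN- cells, and 308 in ALCAM+ against 6 in liver, the same high and low fractions as Npnt. Lama5 was at 769 in ITGA8+, 3265 in ITGA8-, 4215 in PDPN+ and 381 in PDPN- cells, again with the high and low pairs apart. The nearest arrays of the 2 pairs differed by 2.84-fold for Egfl6 and 4.18-fold for Lama5. At 2-fold, 1.63% of all genes had this pattern. Grip1, the intracellular scaffold that brings Fraser proteins to the membrane, was at 1096, 1969, 2228 and 1202 in that order, and passed 2-fold in neither split.

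None of the other listed integrin chain genes that bind the tripeptide passed 2-fold in both splits in the directions of Itga8. All-gene shares for the counts that follow are 15.5% higher and 11.3% lower over liver, 19.9% and 7.89% in PDPN+, and 5.36% and 5.98% in ITGA8+ cells. Of 7 genes, 6 were above the floor in each split, and in ALCAM+ minus liver 3 of 5 were higher and 0 lower (Itga2b, 2.90-fold, Itgav, 2.64-fold, and Itgb3, 2.21-fold). In PDPN+ cells 3 were higher and 0 lower: Itgb3 (21.3-fold) and Itga2b (21.0-fold), the platelet integrin chains, and Itgb8 (4.84-fold). In ITGA8+ cells 2 were higher and 0 lower, Itga2b (3.43-fold) and Itgb5 (2.19-fold). Itga2b is also among the megakaryocyte markers, whose sums are given above. Itga5, the fibronectin receptor alpha chain, was at 5117 in ITGA8+, 2555 in ITGA8-, 2222 in PDPN+ and 4436 in PDPN- cells, just short of the mark in both splits. Itgb5 was at 2279, 1033, 1357 and 2213 in that order. Both genes had the same high and low pairs of fractions as Itga8, with smaller differences. How many of all genes had this order without a fold mark was not counted, so it is a description only. Itgav, the alpha chain of the vitronectin receptors, was at 12458 to 14600 in the 4 fractions. Of the alpha chains that pair with beta 1, 5 were above the floor in the podoplanin split and 6 in the ITGA8 split. There Itga6 (10-fold), Itga3 (5.32-fold), both laminin receptor chains, and Itga4 (2.82-fold) were higher in PDPN+ cells, Itga9 (2.65-fold) was higher in ITGA8+ cells, and 0 were lower in either. In ALCAM+ minus liver 1 of 5 was higher, Itga3 (6.66-fold), and 0 lower.

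The intracellular adhesion machinery, which links beta 1 chains to actin, was on the array with 22 of 23 genes. In ALCAM+ minus liver 11 of 20 above the floor were 2-fold higher and 0 lower (median 1.07 log2), beside 15.5% and 11.3% of all genes, led by Parva (4.97-fold). In the podoplanin split 5 of 22 were higher and 0 lower (median 0.22), a share near the 19.9% of all genes, and Fermt3, the kindlin of blood cells (11.9-fold), Parvb (10.9-fold) and Parvg (6.32-fold) led them. In the ITGA8 split 5 of 21 were higher in ITGA8+ cells and 0 lower (median 0.35), beside 5.36% and 5.98%. These were the talin genes Tln2 (3.03-fold) and Tln1 (2.07-fold), Bcar1 (2.87-fold), Tgfb1i1 (2.40-fold) and Tns1 (2.13-fold). The kinase gene Ilk was at 3147 to 3856 and vinculin, Vcl, at 12419 to 14800 in the 4 fractions. The megakaryocyte markers summed to 38717 in ITGA8+ and 16533 in ITGA8- cells, and their part in these differences was not tested.

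A list of 16 further matrix and secreted proteins, 13 of which held the tripeptide, had 14 on the array. In PDPN+ cells 8 of 11 above the floor were higher and 1 lower (median 2.43 log2), beside 19.9% and 7.89% of all genes, led by the platelet genes Vwf (58.6-fold) and Thbs1 (22.0-fold), Dmp1 (18.7-fold) and Tgfb3 (17.3-fold). Vwf was at 3 and Dmp1 at 1 in PDPN- cells, so these sizes depend on the pseudocount. The 1 lower was Tnxb, at 24 against 152. In ITGA8+ cells 2 of 12 were higher, Vwf (4.53-fold) and Dmp1 (2.90-fold), and 1 was lower, Igfbp2 (5.49-fold), beside 5.36% and 5.98%. In ALCAM+ minus liver 6 of 10 were higher and 0 lower (median 1.02), beside 15.5% and 11.3%. The GDNF axis, which the receptor is known to sustain in kidney, was low in part. Gdnf was at 8 to 31 in the 6 arrays, below the floor in each, and in ALCAM+ minus liver 1 of 3 axis genes was higher (Spry1, 2.28-fold) and 0 lower, beside the same shares. The GDNF coreceptor gene Gfra1 was at 1097 in ITGA8+, 913 in ITGA8-, 1243 in PDPN+ and 3197 in PDPN- cells, and of 4 axis genes above the floor in each split, 2 were lower in PDPN+ (Spry1, 3.74-fold, and Gfra1, 2.55-fold) beside 7.89% of all genes, and 0 passed 2-fold in the ITGA8 split.

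**Figure D4:**
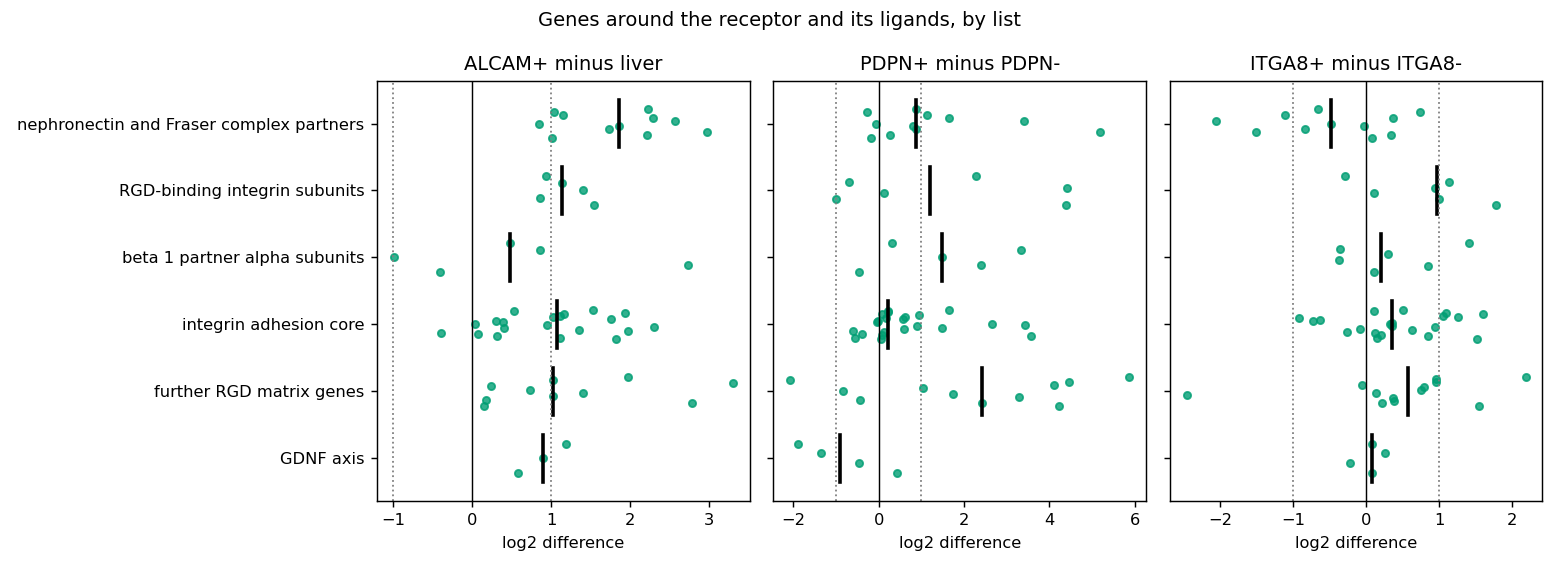
Difference on the log2 scale (x) of each gene above the floor in 6 lists (rows) in the 3 comparisons, relative to the median shift in the left panel; points are genes, black bars the list medians, dotted lines 2-fold. The partners of nephronectin have a median of 0.88 in the podoplanin split and -0.48 in the ITGA8 split.

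The genes most like Itga8 and Npnt were sought among 10936 genes, by the root mean square distance between log2 profiles over the 6 arrays, centred within each scale set. Nearest to Itga8 were Igfbp7, a secreted binding protein of the insulin-like growth factor family (0.185), Clca3a1 (0.257), Gdf2, encoding BMP9 (0.279), Hpca (0.313) and Colec11, a collectin (0.337). Igfbp7 was at 3727 in ITGA8+ and 586 in ITGA8- cells, 649 in PDPN+ and 1373 in PDPN- cells, and 668 in ALCAM+ against 97 in liver. Gdf2 was at 6991 in ITGA8+, 1133 in ITGA8-, 894 in PDPN+ and 2481 in PDPN- cells, the same order as Itga8. Frem1 was the nearest of the other 8 genes measured this way, at rank 328, and Itgb1 was at rank 6834. Nearest to Npnt were the elastic fibre gene Fbln5 (0.438), the guidance gene Sema3d (0.459), Cyp2s1 (0.471), Cryab, a small heat shock protein gene (0.485), and Fmod, a small proteoglycan gene (0.486), with Fras1 at rank 162 and Frem2 at rank 331. The distances have no error, with 1 array per group.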

How the data were processed

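RNA of 6 samples, 20 ng each, was amplified, labelled with biotin and hybridised to GeneChip Mouse Genome 430 2.0 arrays, per the labels. The authors deposited intensity values on a linear scale; the submitters' processing notes name RMA and Partek, without versions. Values were whole numbers and not on 1 scale, so the 2 scale sets were not compared by level, though the floor is common to both. Probe sets that named several genes (1280) or none (5746) and 64 controls were left out. Symbols came through Entrez identifiers from RefSeq (GRCm38.p6), which matched 92.11%. Differences of log2(intensity + 16) were computed with Python 3.11.15 and pandas 2.3.3, and the step was tested on simulated data. With 1 array per group there is no test, so counts at 2-fold are descriptions. The genes, lists and thresholds were chosen with earlier results of these data known; every gene of the set was named, with at most 4 of a list by size and the 5 most like Itga8 and Npnt by distance. Alternatives were the pseudocount (1, 64), floor, probe set choice, scaling and a 4-fold mark. The number of arrays limits precision. The planned protein table was not used here, so coding sequences were translated with Biopython 1.88 and the planned protein identities were not computed.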

Additional observations from a re-analysis of the deposited data

How the results depend on the processing

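With 1 array per group the limits are the number of arrays, the 2 intensity scales, and low signal: values near the floor of 109, such as Spp1 and the liver values of 6 genes, carry sizes that depend on the pseudocount. No paired analysis was possible because each group has 1 array. A gene under the floor in both arrays was not counted as past the 2-fold mark, whatever its size. Of 297 recomputed differences of single genes, 277 kept their direction and their call at this mark. In 6 it was no longer passed and in 6 it was newly passed. Sign changed in 8 differences under 2-fold and in 0 past 2-fold. Spp1 over liver, under the floor, is among the 277 with loess scaling, at -2.19 log2 against -0.51 as reported. The 6 lost were Itga8 over liver with the mean of its probe sets (0.91 log2), Tnc in PDPN+ with that mean (0.89) and with quantile normalisation (0.84), Npnt in ITGA8+ with quantile normalisation (-0.99), and Spp1 in ITGA8+ with the floor doubled or with quantile normalisation, where both arrays then lay under the floor. The 6 gained were of Fn1 over liver, at 1.01 to 1.87. Counts moved by over 1.5 times in 7 of 84 settings. The share of all genes was not computed at 4-fold or with quantile normalisation, so the counts given for these are descriptions only. At 4-fold, 2 genes were higher in ALCAM+ cells in place of 6, 0 lower in PDPN+ in place of 1, 1 higher and 2 lower in ITGA8+ in place of 2 and 4, and 0 had the Itga8 pattern over the 4 fractions in place of 1. With quantile normalisation 2 were lower in ITGA8+, and with the PDPN- array left out 2 had the Itga8 pattern, an alternative chosen after seeing the data. The pattern reported for Npnt, Fras1 and Frem2 held for 2 genes in place of 3 with quantile normalisation and also at 4-fold. It held for 4 genes with the PDPN- array left out. Vtn has no probe set free of a shared suffix, so the alternative with specific probe sets gave it no value.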
